A study of Mus musculus with 6 samples.

Results

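The type I interferon response was described through 34 genes that interferon alpha and beta are known to induce. Members were the rows of the deposited gene table whose gene name was on that list, 34 of 54532 rows. All 34 had reads and all 34 passed the filter on low counts, among 16075 genes tested. CD4+ T cells came from the spleens of C57BL/6 mice in acute EAE (experimental autoimmune encephalomyelitis), a model of multiple sclerosis in which T cells attack myelin. RNA was sequenced for 3 Ogt-KD libraries, from mice of the genotype Ogtfl/wt CD4-Cre (CD4-Cre with a floxed Ogt allele beside a wild-type one). The other 3 libraries came from control mice labelled wild type. Ogt is the X-linked gene for O-GlcNAc transferase, an enzyme that adds a sugar to nuclear and cytoplasmic proteins, and Cd4 regulatory sequence drives Cre in T cells. EAE, the strain and the spleen source were shared by both groups, and age was not given in the sources used here. No Cre or floxed allele is named for the controls, so effects of Cre, of linked DNA and of Ogt cannot be told apart.

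Interferon alpha and beta bind the receptor IFNAR1-IFNAR2, whose kinases JAK1 and TYK2 phosphorylate transcription factors such as STAT2. With IRF9, STAT2 acts in a complex that binds interferon-stimulated response elements in the promoters of the induced genes. Their products sense viral RNA and DNA, block viral replication and, as with USP18, damp the receptor's signal. In T cells the same genes keep a low tonic level and rise in infection and autoimmunity.

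Total counts ran from 18127031 to 25683453 per library. CPM below are read counts scaled by library size and TMM factor, and values per library are given for replicates 1, 2 and 3 of a group in that order. Ogt itself had 662, 599 and 459 CPM in the Ogt-KD libraries, against 599, 628 and 562 CPM in the control libraries (log2 ratio -0.058 with SE 0.15, edgeR adjusted p = 0.981). A gene count holds reads from undeleted exons too, and loss of the floxed part of Ogt was not tested. The 7 CD4 T cell markers (Cd3d, Cd3e, Cd3g, Cd4, Trac, Lck and Cd28) summed to 3234 to 3499.9 CPM in Ogt-KD and 3427 to 3768 CPM in control libraries. On the first principal component of all tested genes, the replicate 3 libraries stood away from the first and second Ogt-KD libraries.

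The level of the interferon response genes did not separate Ogt-KD from control cells, and it differed strongly between libraries that carry different replicate numbers. In both groups replicate 2 was high, replicate 1 intermediate and replicate 3 low. The mean over the 34 genes of log2 CPM, minus each gene's mean over the 6 libraries, was -0.059, 0.77 and -0.87 in the Ogt-KD libraries, against -0.059, 0.70 and -0.47 in the control libraries. The 34 genes together held 4763, 8048 and 2901 CPM in the Ogt-KD libraries, against 4992, 7766 and 3696 CPM in the control libraries. The groups overlapped almost completely, and Ogt-KD replicate 3 was the lowest library.

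**Figure D1:**
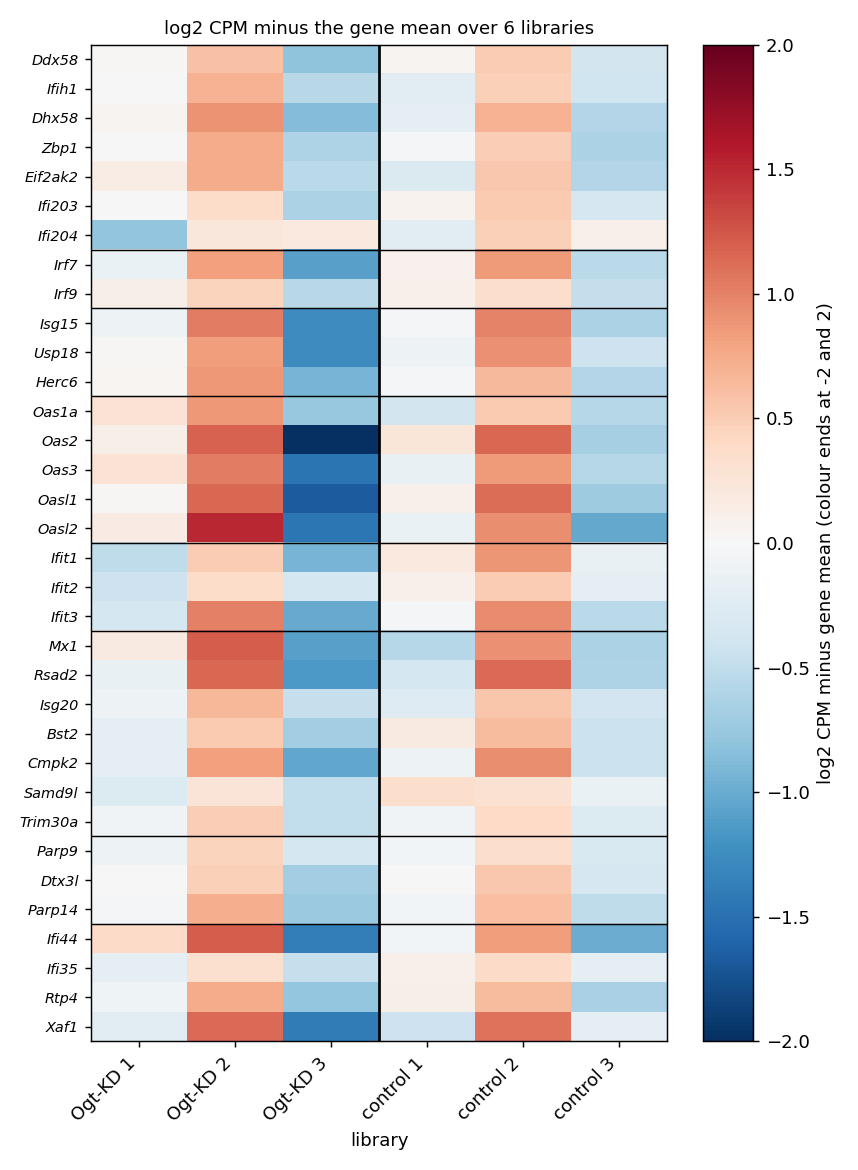
Each row is 1 of the 34 interferon response genes, in role groups divided by black lines, and each column a library, Ogt-KD left of control. Colour gives log2 CPM minus the gene's mean over the 6 libraries; the replicate 2 columns are red and the replicate 3 columns mostly blue in both groups, and 30 of 34 genes had the order 2, 1, 3 in both.

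The order replicate 2 over replicate 1 over replicate 3 held in both groups for 30 of the 34 genes, a pattern looked for after the values were seen; 9.08% of all tested genes had it. Replicate 2 was the highest library of both groups for 33 genes (all but Samd9l), against 15.8% of tested genes. Replicate 3 was the lowest of both groups for 31 genes, against 24.8% of tested genes. The exceptions to the full order were Samd9l, Xaf1, Ifit2 and Ifi204. The first principal component over the 34 genes held 93.8% of their variance between libraries, with replicate 2 of both groups at its high end and replicate 3 of both groups at its low end.

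The spread within a group was large. The highest Ogt-KD library held between 1.68 and 9.23 times the CPM of the lowest (median 2.81 over the 34 genes), against 1.40 to 3.90 times among the controls (median 2.18). Over all tested genes the medians were 1.37 among Ogt-KD and 1.28 among control libraries. In 22 of 34 genes the highest library had at least 2 times the CPM of the lowest in both groups, against 8.73% of tested genes. The ratio was larger among the Ogt-KD than among the control libraries for all 34 genes, against 62.3% of tested genes. Oas2 had the widest Ogt-KD range at 9.23 times, against 3.48 times among controls, and Samd9l the narrowest at 1.68 times, against 1.40 times. These ratios rest on 3 libraries a group and were not tested.

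Expressed per length, as the authors' FPKM, the genes covered a wide range of levels. Bst2, which encodes tetherin, was the highest at 213 FPKM in Ogt-KD and 250.4 FPKM in control libraries. Isg15 followed with means over the 6 libraries of 128 FPKM, then Irf7 with 99.7, Ifit3 with 84.6, Zbp1 with 80.6 and Ifi203 with 79.1 FPKM. The lowest were Rsad2 at 14.4, Ifi204 at 11.5, Ifih1 at 11.2, Herc6 at 10.1 and Ifi44 at 3.74 FPKM. Neighbours in this order overlap between libraries: Isg15 ran from 46.1 to 221 FPKM and Irf7 from 42.1 to 163 FPKM.

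**Figure D2:**
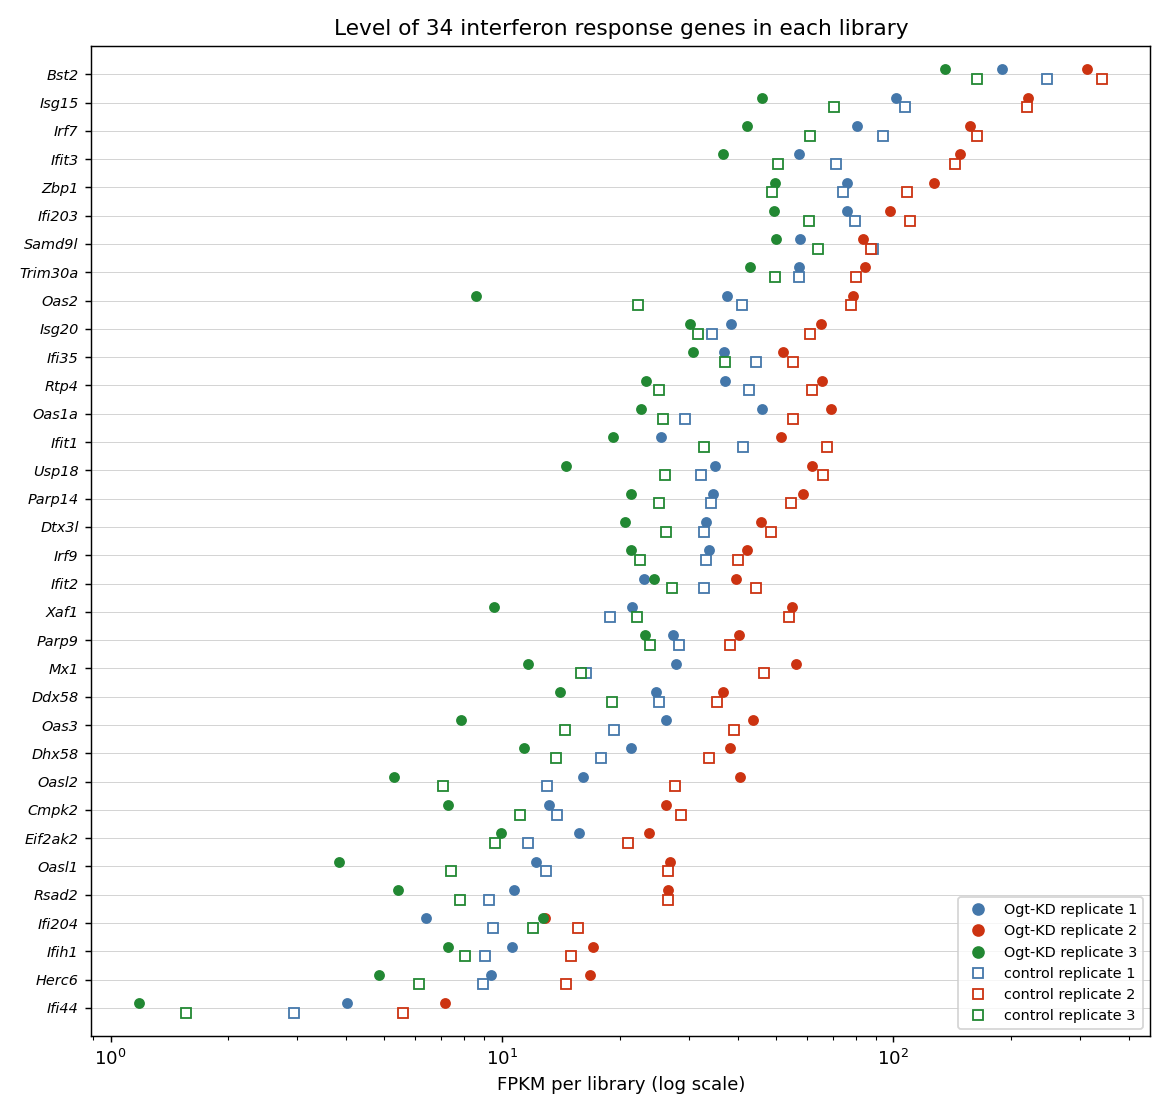
FPKM of each interferon response gene (rows, ordered by mean level) in each library, on a log axis; filled circles are Ogt-KD and open squares control libraries, coloured by replicate number. Points of the same colour lie near each other for most genes, and Bst2 stands at the top and Ifi44 at the bottom.

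The comparison of groups asked whether Ogt-KD cells expressed these genes at a different level during EAE. None of the 34 genes passed (edgeR quasi-likelihood test, Benjamini-Hochberg adjusted p under 0.05 over all tested genes), where 0.00622% of tested genes did, a single gene, Gm33707 on chromosome 3, which is no member. None had an unadjusted p under 0.05, against 7.52% of tested genes, and the lowest adjusted p of any member was 0.83. Of the 34, 14 lay above 0, against 49% of tested genes. The log2 fold changes, with control as the denominator, ran from -0.55 for Ifit1 to 0.38 for Oasl2, with a median of -0.054 beside -0.0048 over all tested genes. In no gene were the 3 Ogt-KD values all on one side of the 3 control values, which 13.3% of tested genes showed. DESeq2 called none at adjusted p under 0.05 (0.638% of its genes), and none had an unadjusted p under 0.05 by DESeq2 (4.45%). In the authors' deposited table none had an adjusted p under 0.05 (0.417% of its genes).

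The lowest count of any member in any library was 170 reads (Ifi44, control replicate 3). The median SE of the log2 fold change was 0.42 over the members and 0.20 over all tested genes. For Isg15 the 95% interval, -1.53 to 1.33, holds changes of more than 2 times in either direction. The direction of the list, by its median log2 fold change, depended on single libraries. Leaving out Ogt-KD replicate 1, 2 or 3 in turn gave medians of 0.040, -0.46 and 0.27 in that order. Leaving out control replicate 1, 2 or 3 gave -0.13, 0.39 and -0.30. Without both replicate 3 libraries it was 0.030.

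With the replicate number as a block, which compares libraries of the same number, the median SE of the members fell to 0.11, against 0.42 without it; over all tested genes it was 0.15 with the block. None of the 34 passed adjusted over all genes, where 0.292% of tested genes did. At an unadjusted p under 0.05 there were 6 members, against 0 without the block; 13.2% of tested genes were under it. Of these, 5 were lower in Ogt-KD (Bst2, Ifi35, Ifit1, Ifit2 and Samd9l, against 5.63% of tested genes), and Eif2ak2 was higher (against 7.55%). The smallest was Ifit1, with a log2 fold change of -0.61 (SE 0.10) and an edgeR adjusted p of 0.065 with the block. The block uses the replicate numbers of the labels, which state no pairing. It was chosen with earlier results of these data known, so its p values can be too small.

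**Figure D3:**
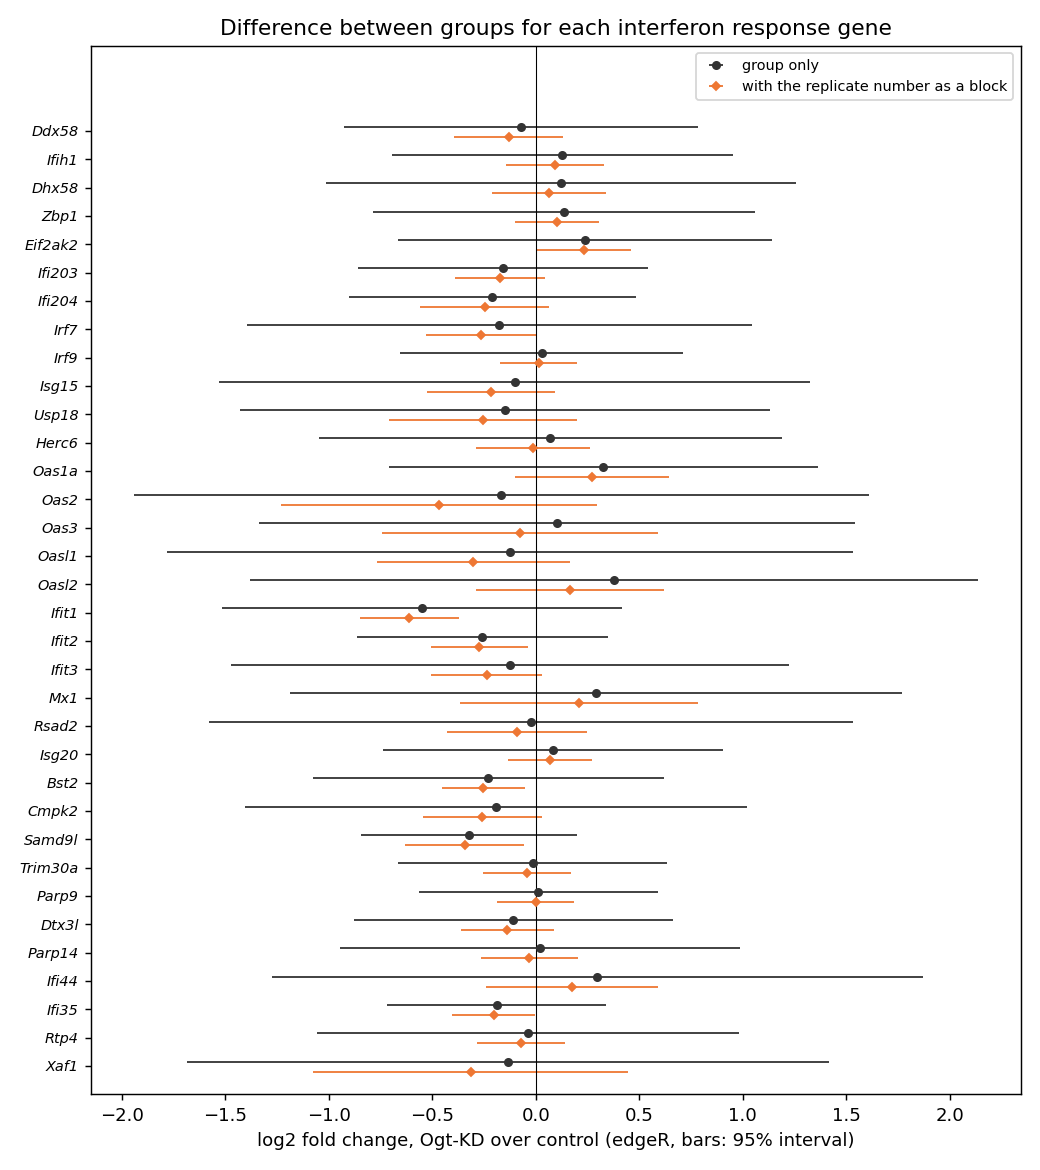
Difference of Ogt-KD from control (log2 fold change, x axis) for each of the 34 genes with its 95% interval from edgeR, by group only (black circles) and with the replicate number as a block (orange diamonds). Every black interval crosses 0; the orange intervals are narrower, and that of Ifit1 lies farthest below 0.

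Set side by side by replicate number, the libraries differed mainly at number 3. The median over members of log2 CPM in Ogt-KD minus control was 0.0047 for number 1, 0.069 for number 2 and -0.35 for number 3. Members lower in the Ogt-KD library numbered 17 of 34 at number 1, 11 at number 2 and 31 at number 3. Over all tested genes the shares were 51.4%, 49.3% and 49.5%. The members not lower at number 3 were Eif2ak2, Ifi204 and Zbp1. Ogt-KD replicate 3 was the lowest of all 6 libraries for 30 members, against 25.3% of tested genes, and Ogt-KD replicate 2 the highest for 23, against 18.1%. Each such difference sets 1 library against 1 other and has no replicate.

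Among the sensors of nucleic acids and the Ifi200 proteins 4 of 7 were above 0 (median 0.12), and none passed. Zbp1 (chr2:173206612-173218923), a sensor of left-handed double-stranded nucleic acids that can start necroptosis, had 272, 452 and 176 CPM in Ogt-KD, against 266, 379.9 and 173 CPM in control libraries (log2 ratio 0.14 with SE 0.39, edgeR adjusted p = 0.981). Replicate 2 was high and replicate 3 low in both groups. Eif2ak2 (chr17:78852564-78882573), the RNA-activated kinase PKR that shuts down translation, had 81.6, 123 and 50.9 CPM in Ogt-KD, against 60.2, 107 and 49.1 CPM in control libraries (log2 ratio 0.24 with SE 0.38, edgeR adjusted p = 0.966). Its Ogt-KD value was above the control value of the same number each time, but the groups overlapped. Ddx58 and Ifih1, the cytosolic RNA sensors RIG-I and MDA5, had log2 fold changes of -0.070 (SE 0.36) and 0.13 (SE 0.35). Dhx58, the related helicase LGP2, had 0.12 (SE 0.48).

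Ifi204 and Ifi203 belong to the Ifi200 family of interferon-induced DNA-binding proteins on chromosome 1. Ifi204 (chr1:173747293-173766943) had 23.0, 46.5 and 45.3 CPM in Ogt-KD, against 34.3, 55.5 and 42.9 CPM in control libraries (log2 ratio -0.21 with SE 0.29, edgeR adjusted p = 0.956). It did not follow the list: its lowest library was replicate 1 in both groups. Ifi203 averaged 505 ± 166 CPM in Ogt-KD and 563 ± 165 CPM in control libraries (SD, n = 3 each) and kept the common order. Ifi203 overlaps Mndal by 22085 bases on the same strand, and members of the family are similar in sequence, so reads may be split between them.

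Both transcription factors of the list followed the common order. Irf7 (chr7:141262706-141266481), which drives the amplifying phase of interferon production, had 309, 599 and 159 CPM in Ogt-KD, against 359, 614 and 232 CPM in control libraries (log2 ratio -0.18 with SE 0.52, edgeR adjusted p = 0.981). The highest library of each group had more than 2 times the level of its lowest. Irf9, the DNA-binding partner of STAT2, averaged 176 ± 57.5 CPM in Ogt-KD and 173 ± 47.5 CPM in control libraries (SD, n = 3 each), with a log2 fold change of 0.029 (SE 0.29). Irf9 overlaps Rnf31 by 123 bases on the same strand, and Irf7 overlaps Phrf1 by 45 bases on the other strand.

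The ISG15 system couples a ubiquitin-like protein, ISG15, to other proteins. Isg15 (chr4:156199424-156200818) had 77.7, 169 and 34.9 CPM in Ogt-KD, against 82.0, 166 and 53.6 CPM in control libraries (log2 ratio -0.10 with SE 0.61, edgeR adjusted p = 0.992). The replicate 2 libraries lay close together, and Ogt-KD replicate 3 was below control replicate 3. Usp18, which removes ISG15 and restrains the interferon receptor, averaged 105 ± 67.2 CPM in Ogt-KD and 116 ± 59.5 CPM in control libraries (SD, n = 3 each), with a log2 fold change of -0.15 (SE 0.54). Herc6, a ligase for ISG15 in mice, had 0.069 (SE 0.47).

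The OAS genes encode enzymes that respond to double-stranded RNA and activate RNase L, and proteins related to these enzymes. Of the role groups the OAS family had the widest median range between libraries, in Ogt-KD and in control. Oas2 (chr5:120730333-120749853) had 169.6, 354 and 38.4 CPM in Ogt-KD, against 185, 345 and 99.1 CPM in control libraries (log2 ratio -0.17 with SE 0.75, edgeR adjusted p = 0.987). Oasl2 (chr5:114896936-114912234), an OAS-like protein, had 104, 261 and 33.8 CPM in Ogt-KD, against 84.2, 176 and 45.1 CPM in control libraries (log2 ratio 0.38 with SE 0.74, edgeR adjusted p = 0.976). Oas1a (chr5:120896256-120907521) had 87.9, 132 and 42.8 CPM in Ogt-KD, against 56.0, 104 and 48.8 CPM in control libraries (log2 ratio 0.33 with SE 0.44, edgeR adjusted p = 0.955). In all of these Ogt-KD replicate 3 was the lowest library and the groups overlapped. Oas3 and Oasl1 had log2 fold changes of 0.10 (SE 0.61) and -0.13 (SE 0.70). Over the family, 3 of 5 lay above 0. Oas1a has close copies beside it on chromosome 5, so its count is uncertain.

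The IFIT proteins bind viral RNA and block its translation, and all 3 genes had a value below 0 without passing. Ifit1 (chr19:34640871-34650009) had 68.6, 139 and 51.1 CPM in Ogt-KD, against 111, 179 and 87.4 CPM in control libraries (log2 ratio -0.55 with SE 0.41, edgeR adjusted p = 0.859). Each Ogt-KD library was below the control library of its number, while Ogt-KD replicate 2 stood above control replicates 1 and 3. Ifit2 (chr19:34550694-34576419) had 91.6, 158 and 96.1 CPM in Ogt-KD, against 131, 174 and 107 CPM in control libraries (log2 ratio -0.26 with SE 0.26, edgeR adjusted p = 0.931), and its lowest library was Ogt-KD replicate 1. Ifit3 (chr19:34583531-34588731) had 101, 261 and 64.2 CPM in Ogt-KD, against 126, 249.6 and 88.8 CPM in control libraries (log2 ratio -0.12 with SE 0.57, edgeR adjusted p = 0.988). Its near-identical neighbour Ifit3b had 23.3, 64.5 and 14.3 CPM in Ogt-KD, against 31.9, 60.7 and 25.3 CPM in control libraries, so the counting of both is uncertain.

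Among the other antiviral effectors 2 of 7 were above 0 (median -0.023). Bst2 (chr8:71534255-71537456), which tethers budding virions to the cell, had 173, 285 and 123 CPM in Ogt-KD, against 225, 308 and 148 CPM in control libraries (log2 ratio -0.23 with SE 0.36, edgeR adjusted p = 0.966). Samd9l (chr6:3372257-3399572), a restraint on cell growth and viral translation, had 316, 459.5 and 273 CPM in Ogt-KD, against 489, 473 and 350.5 CPM in control libraries (log2 ratio -0.32 with SE 0.22, edgeR adjusted p = 0.83). Both were below the control of the same number each time, and Samd9l had the smallest unadjusted p of the list. Mx1 (chr16:97447035-97462907), a GTPase against influenza virus that is known to be defective in C57BL/6 mice, had 106, 216 and 44.1 CPM in Ogt-KD, against 63.0, 176 and 60.3 CPM in control libraries (log2 ratio 0.29 with SE 0.63, edgeR adjusted p = 0.979). Its groups overlapped, with both replicate 2 libraries far above the rest.

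Rsad2, which encodes viperin, averaged 62.3 ± 48.2 CPM in Ogt-KD and 63.1 ± 44.7 CPM in control libraries (SD, n = 3 each). Its neighbour Cmpk2, a mitochondrial nucleotide kinase, averaged 65.4 ± 41.0 CPM in Ogt-KD and 74.6 ± 38.8 CPM in control libraries (SD, n = 3 each). Their log2 fold changes were -0.023 (SE 0.66) and -0.19 (SE 0.51). Isg20, an RNA exonuclease, had 0.082 (SE 0.35), and Trim30a, a TRIM protein that restrains Toll-like receptor signals in mice, had -0.015 (SE 0.28). All 4 kept the common order between libraries. Trim30a has close copies beside it, so its count is uncertain.

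PARP9 and DTX3L form a complex that takes part in interferon signalling and ubiquitylates histones, and PARP14 is a related ADP-ribosyl transferase. Parp14 (chr16:35832874-35871544) had 327, 553 and 199 CPM in Ogt-KD, against 322, 507 and 235 CPM in control libraries (log2 ratio 0.020 with SE 0.41, edgeR adjusted p = 0.998). Parp9 averaged 149 ± 44.1 CPM in Ogt-KD and 147 ± 34.9 CPM in control libraries (SD, n = 3 each), with a log2 fold change of 0.013 (SE 0.24), and Dtx3l had -0.11 (SE 0.33). The log2 fold changes of these 3 genes lay closest together of the role groups with 3 or more members. Parp9 and Dtx3l overlap by 682 bases on opposite strands.

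Of the remaining induced genes, Ifi35 (chr11:101448407-101458698), a leucine zipper protein, had 64.5, 91.4 and 53.1 CPM in Ogt-KD, against 77.9, 95.4 and 64.4 CPM in control libraries (log2 ratio -0.19 with SE 0.22, edgeR adjusted p = 0.945). Ifi44 (chr3:151730922-151749960) had 24.9, 44.4 and 7.27 CPM in Ogt-KD, against 18.3, 34.1 and 9.58 CPM in control libraries (log2 ratio 0.30 with SE 0.67, edgeR adjusted p = 0.979). The range of Ifi44 was wide in both groups, that of Ifi35 narrow. Rtp4, a chaperone of receptors, had a log2 fold change of -0.037 (SE 0.43). Xaf1, a promoter of cell death that antagonises XIAP, had 102, 261 and 44.9 CPM in Ogt-KD, against 89.7, 254 and 104 CPM in control libraries (log2 ratio -0.13 with SE 0.66, edgeR adjusted p = 0.988), and was an exception to the common order because control replicate 3 stood above control replicate 1.

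The promoters of the 34 genes were searched for the core of the interferon-stimulated response element, GAAA, any 2 bases and GAAA again, on either strand. Windows ran from 250 bases before to 50 bases after the gene start (RefSeq, GRCm38.p6). Of the 34 genes 25 were in the promoter table, and 12 of them (48.0%) held these letters in at least 1 window, against 3.99% of 27025 genes. The match lay before the gene start for 9 members (36.0%), against 3.46% of all genes. The members were listed as interferon-induced genes, so these shares describe the list and say nothing about the differences between libraries. Adjoining matches can share letters. Shown here are the stretches of the 5 promoters with at least 2 upstream matches, 5′ to 3′ on the gene's strand, with every matching letter in capitals.
Isg15: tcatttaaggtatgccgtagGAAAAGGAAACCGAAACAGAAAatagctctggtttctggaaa
Oas1a: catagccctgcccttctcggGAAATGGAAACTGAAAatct
Bst2: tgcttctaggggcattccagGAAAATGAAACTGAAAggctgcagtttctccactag
Ifit3: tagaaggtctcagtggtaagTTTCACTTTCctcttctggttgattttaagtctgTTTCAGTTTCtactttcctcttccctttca
Ifit1: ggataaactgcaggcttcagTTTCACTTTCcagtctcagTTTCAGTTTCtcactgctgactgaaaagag

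On GRCm38.p6 the stretch of Isg15 is chr4:156200855-156200916 on the minus strand, that of Oas1a chr5:120907526-120907565 on the minus strand and that of Bst2 chr8:71537567-71537622 on the minus strand. Those of Ifit3 and Ifit1 are chr19:34583353-34583436 and chr19:34640765-34640833, both on the plus strand. Isg15 carried 3 overlapping matches whose first base was 78 bases before the gene start. Ifit1 and Ifit3, neighbours on chromosome 19, each carried a pair read on the opposite strand, the nearer one ending 75 and 112 bases before the gene start. The letters were in genes with a wide range between libraries (Isg15, Ifit3) and in those with a narrower one (Bst2). A match is a description of sequence and does not show binding.

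The interferon genes themselves were hardly detected. Of 18 genes for type I interferons (Ifnb1, the Ifna genes, Ifnab, Ifne, Ifnk and Ifnz), 14 had 0 reads in every library, which allows up to 3 reads in each, and none passed the filter. Together they had 4, 5 and 7 reads in the Ogt-KD libraries, against 9, 6 and 6 reads in the control libraries. Ifnb1 had 0, 0 and 0 reads in Ogt-KD, against 2, 1 and 0 in control libraries. The Ifna genes are similar in sequence, so reads that match several of them may be uncounted.

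None of the receptor and signalling genes described here (Ifnar1, Ifnar2, Jak1, Tyk2 and Stat2) passed. Stat2, the transcription factor tied to the type I receptor, had 172, 317 and 85.0 CPM in Ogt-KD, against 143, 271 and 103 CPM in control libraries (log2 ratio 0.15 with SE 0.52, edgeR adjusted p = 0.983), the same pattern between libraries as the response genes. Ifnar1 and Tyk2 also had the order 2, 1, 3 in both groups, and Jak1 and Ifnar2 did not. Jak1 had 603, 564 and 689 CPM in Ogt-KD, against 734, 729.9 and 720.0 CPM in control libraries (log2 ratio -0.23 with SE 0.11, edgeR adjusted p = 0.685). The receptor chains Ifnar1 and Ifnar2 had log2 fold changes of 0.15 (SE 0.16) and 0.18 (SE 0.10), and Tyk2 had 0.14 (SE 0.13).

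Among 10 genes that sense nucleic acids and induce interferon, none passed, 4 lay above 0 and 2 had the order 2, 1, 3 in both groups. Irf5, a factor of inflammatory and interferon genes in myeloid cells, had 34.3, 55.8 and 42.2 CPM in Ogt-KD, against 28.0, 30.7 and 32.1 CPM in control libraries (log2 ratio 0.54 with SE 0.18, edgeR adjusted p = 0.583). Tlr9, the endosomal DNA receptor, had a log2 fold change of 0.61 (SE 0.30), Mavs, the adaptor of the RNA sensors, -0.22 (SE 0.10) and Irf3 -0.094 (SE 0.077). Among 5 brakes of cytokine signalling none passed and 1 lay above 0. Socs3 had -0.23 (SE 0.10), Ptpn6 -0.18 (SE 0.15), Pias1 -0.054 (SE 0.087) and Socs1 0.15 (SE 0.19).

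A list of 52 further interferon-induced genes outside the 34 behaved alike between libraries. Its mean level was -0.071, 0.49 and -0.48 in the Ogt-KD libraries, against -0.017, 0.36 and -0.28 in the control libraries, on the same centred log2 scale. The order 2, 1, 3 in both groups held for 34 of 52 genes. None passed, 24 lay above 0, and their median was -0.039. The one with an unadjusted p under 0.05 was Ifi208, another Ifi200 gene, with 95.1, 60.2 and 45.7 CPM in Ogt-KD, against 77.9, 177 and 108 CPM in control libraries (log2 ratio -0.85 with SE 0.36, edgeR adjusted p = 0.663). Ifi208 did not follow the order between libraries. Ifitm1, Trim30b and Ifi211 had log2 fold changes of 0.53 (SE 0.30), 0.73 (SE 0.52) and -0.32 (SE 0.26).

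On the side of interferon gamma, the type II interferon of helper T cells, 22 genes were read: the cytokine, its receptor, Irf1, Irf8, Ciita, chemokines and inducible GTPases. None passed and 15 were above 0, the median being 0.059, and 12 had the order 2, 1, 3 in both groups. The list's mean level was 0.037, 0.59 and -0.45 in Ogt-KD libraries, against -0.041, 0.24 and -0.38 in control libraries. Ifng had 17.8, 19.8 and 9.75 CPM in Ogt-KD, against 6.62, 6.28 and 5.86 CPM in control libraries (log2 ratio 1.33 with SE 0.27, edgeR adjusted p = 0.483). Its groups did not overlap, which 13.3% of tested genes showed, Jak1, Ifnar2, Irf5, Mavs and Socs3 among them. DESeq2 called Ifng (adjusted p = 0.0028), as it did 0.638% of its genes. Ifngr2, a receptor chain, had a log2 fold change of -0.32 (SE 0.095), Irf8 0.25 (SE 0.094) and Ciita, the regulator of MHC class II, 1.19 (SE 0.51).

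**Figure D4:**
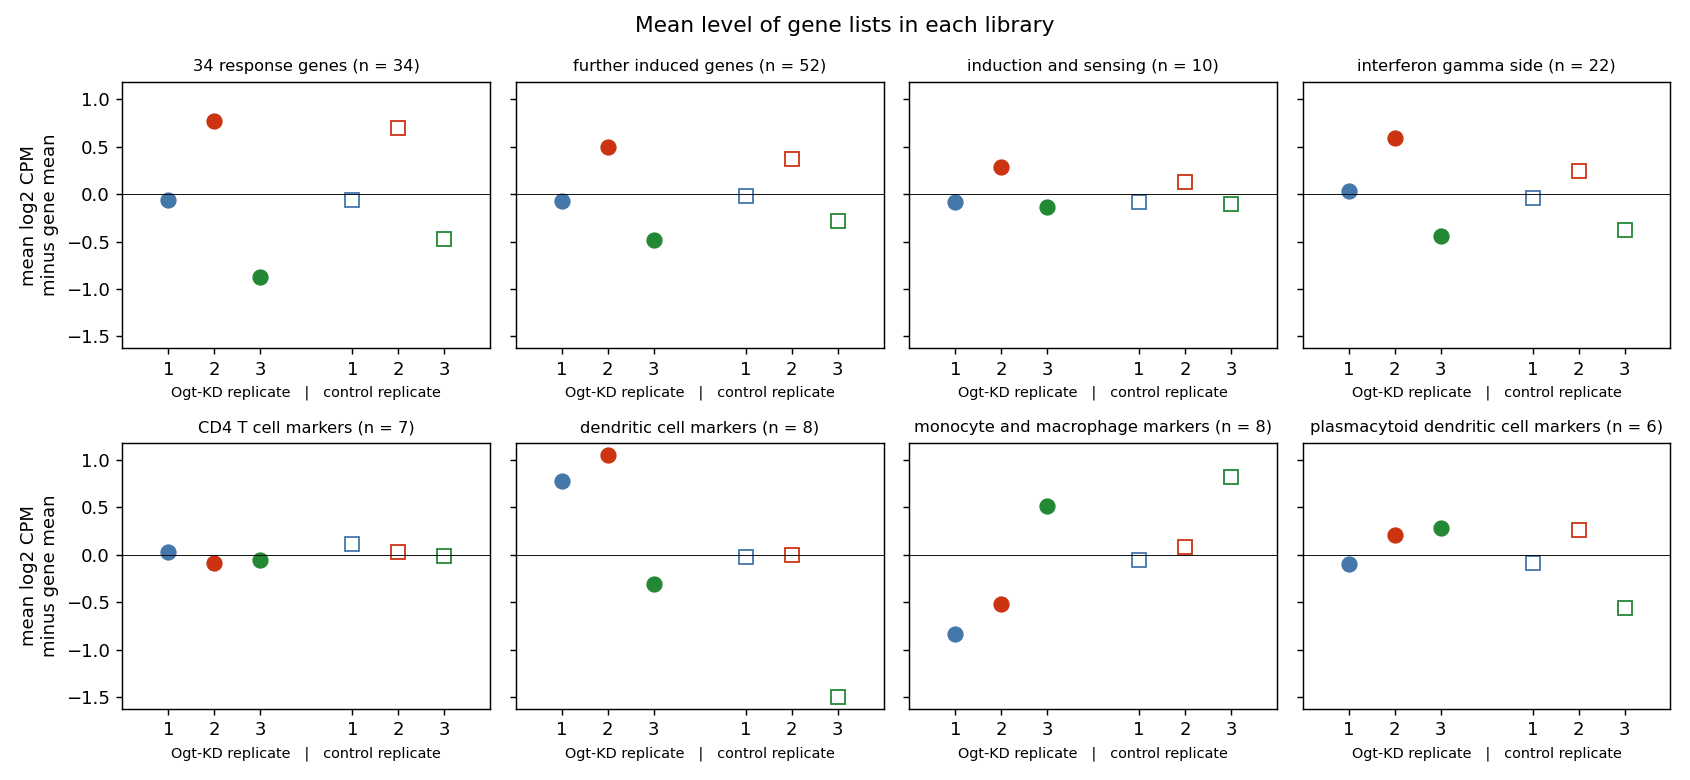
Mean over each list of log2 CPM minus the gene's mean over the 6 libraries (y axis), for Ogt-KD (filled circles) and control libraries (open squares) by replicate number. The 34 response genes run from -0.87 in Ogt-KD replicate 3 to 0.77 in Ogt-KD replicate 2. The means of the interferon-related lists share the order 2, 1, 3, with a small range for induction and sensing (-0.14 to 0.28), where 2 of 10 genes have it. The mean of the dendritic cell markers has this order in both groups too. CD4 T cell markers stay near 0, and monocyte and macrophage markers are highest in the replicate 3 libraries.

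Markers of other cell types also differed between these libraries. The 8 monocyte and macrophage markers (Csf1r, Adgre1, Cd68, Lyz2, Cd14, Fcgr1, Ly6c2 and Vcam1) summed to 627, 674 and 2181 CPM in Ogt-KD, against 1089.9, 1111 and 2443 CPM in control libraries, highest in replicate 3 of both groups. The 8 dendritic cell markers, H2-Ab1 and Cd74 included, summed to 1253, 1749.8 and 638 CPM in Ogt-KD, against 759.6, 767 and 374 CPM in control libraries, lowest in replicate 3 of both groups; 5 of 8 had the order 2, 1, 3. All 8 dendritic markers had a log2 fold change above 0 (median 1.08), and none passed by group only. With the replicate block 3 passed (Zbtb46, Itgax and H2-Ab1, higher in Ogt-KD), against 0.292% of tested genes. The p values of the block can be too small. Other marker lists also lay wholly above 0, as given below. Irf5, Tlr9 and Ciita, which dendritic cells also express, had values above 0 as well. Only 4 of the 10 sensing and inducing genes, which include Irf5 and Tlr9, lay above 0. A link of these genes to the dendritic markers was not tested. The 6 markers of plasmacytoid dendritic cells, the main makers of type I interferon, summed to 103, 110.4 and 101 CPM in Ogt-KD, against 103, 104 and 87.7 CPM in control libraries. On the centred log2 scale used for the response genes, the plasmacytoid list had mean levels of -0.10, 0.21 and 0.28 in Ogt-KD, against -0.090, 0.26 and -0.56 in control libraries, so its Ogt-KD replicate 3 was highest there, and 1 of 6 markers had the order 2, 1, 3 in both groups. Of the 6 plasmacytoid markers, 4 had a log2 fold change above 0 and the others did not, with a median of 0.065 over the list. Siglech, which lay above 0 and was picked after its values were seen, had 9.65, 14.2 and 9.67 CPM in Ogt-KD, against 5.75, 7.17 and 1.30 CPM in control libraries. The part of these cells in the levels of the interferon lists was not tested. In bulk RNA, fewer cells of a type and less RNA per cell cannot be told apart.

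The mean level of the 2 CD8 T cell markers had the order 2, 1, 3 in both groups, with 0.091, 0.36 and -0.35 in Ogt-KD, against 0.10, 0.26 and -0.47 in control libraries, at low sums of 12.9 to 17.1 CPM in Ogt-KD and 13.3 to 16.5 CPM in control libraries. The CD8 sums did not have that order in the control libraries. The dendritic cell list had it in both groups as a mean level and as a sum, and the plasmacytoid list as a sum only. No other marker list had that order in both groups, as a mean level or as a sum. Erythroid markers (8) summed to 42.3 to 210.3 CPM in Ogt-KD and 17.8 to 51.3 CPM in control libraries. All 8 had a log2 fold change above 0 (median 1.53), against 49% of tested genes, and none passed by group only. With the replicate block, whose p values can be too small, 2 passed, against 0.292% of tested genes. B cell markers (6) summed to 84.9 to 113 CPM in Ogt-KD and 69.5 to 101 CPM in control libraries and neutrophil markers (8) to 112 to 267 CPM in Ogt-KD and 98.7 to 207 CPM in control libraries. The 4 tested plasma cell markers of 5 summed to 133 to 262 CPM in Ogt-KD and 82.0 to 258 CPM in control libraries and the 4 tested natural killer cell markers of 5 to 44.5 to 55.4 CPM in Ogt-KD and 32.5 to 34.2 CPM in control libraries. All 8 neutrophil, all 6 B cell and all 4 tested natural killer cell markers had log2 fold changes above 0. So did 3 of 4 tested plasma cell, 4 of 6 plasmacytoid, 3 of 7 CD4 T cell, 1 of 2 CD8 T cell and 2 of 8 monocyte and macrophage markers. No marker of any list had 0 reads in all libraries.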

How the data were processed

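The authors deposited integer read counts per Ensembl gene and FPKM for each library, with their own log2 fold changes, p-values and adjusted p-values of Ogt-KD over control, per the file headers, together with the authors' mean normalised signal per group, which was not used. The deposited gene length, in bases, is an other unit and was not used. Bowtie2 2.0.6, TopHat2 2.0.9 and mm9 are named in the submitters' processing notes; the tool that counted and its strand setting were not given in the sources used here. All 34 members have coordinates identical to GENCODE M21 (GRCm38), as do 53499 of 54532 identifiers, so positions are on GRCm38.

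Counts were tested with the edgeR 4.0.16 quasi-likelihood test (TMM, filterByExpr, robust, R 4.3.3), adjusted by Benjamini-Hochberg over 16075 genes at 0.05, after a check on simulated data. Alternatives were DESeq2 1.42.0, RLE size factors, no filter, leaving out libraries and a replicate block. Log2 CPM used a prior count of 2. Same-numbered libraries deviated together (0.109, 0.346 and 0.523 across genes, all over 0.1), although Ogt-KD replicate 1 and control replicate 2 reached 0.267. The replicate numbers come from the labels, but the labels do not say that equal numbers are paired. No libraries were copies. The design text names 3 mice a group, as many as libraries, and no label ties a library to a mouse. Intervals on counts are not given, and a floor of 3 reads covers counting error only. Members, lists and tests were chosen with earlier results of these data known. Every member is named; full values are given for the highest FPKM of each role group and the 5 smallest p in each direction, and each pathway list has up to 4 genes named by p. Stat2, Siglech, Ifit3b, Ifnb1, Xaf1 and the gene called by edgeR were added after their values were seen, as were the patterns over replicate numbers. Some genes of these lists are not reported here.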

Additional observations from a re-analysis of the deposited data

How the results depend on the processing

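Under none of the 11 alternatives run did an interferon response gene pass adjusted over all genes. At an unadjusted p under 0.05 there were 6 with the replicate block, 0 to 3 when 1 library was left out and 0 under the other alternatives. Genes of any kind past the threshold numbered 1 by edgeR, 47 with the replicate block, 111 with DESeq2, 4 without a filter on low counts, 35 without both replicate 3 libraries and 1 to 2 with 1 library left out. The list's median log2 fold change ran from -0.46 to 0.39 when 1 library was left out. The within-group SD of the list's level was 0.71, and the lowest count of any member in a library was 170 reads. The replicate block changed no call of a member. Ifng, called by no other setting, passed with DESeq2 and without both replicate 3 libraries.

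Log2 fold changes turned sign for some genes that had passed no test. With the replicate block these were Herc6 -0.013, Oas3 -0.076, Parp14 -0.031, without a filter Parp9 -0.0056, Parp14 -0.0016, and without both replicate 3 libraries Ddx58 0.028, Rsad2 0.068, Trim30a 0.051, Xaf1 0.078, Ogt 0.037. With 1 library left out, the lowest and highest values of genes that turned sign were Ddx58 -0.45 to 0.22, Ifih1 -0.26 to 0.45, Dhx58 -0.41 to 0.58, Zbp1 -0.29 to 0.45, Eif2ak2 -0.13 to 0.64, Ifi203 -0.41 to 0.089, Ifi204 -0.37 to 0.054, Irf7 -0.78 to 0.27, Irf9 -0.21 to 0.26, Isg15 -0.84 to 0.47, Usp18 -0.74 to 0.36, Herc6 -0.47 to 0.45, Oas1a -0.10 to 0.74, Oas2 -1.02 to 0.40, Oas3 -0.51 to 0.62, Oasl1 -0.96 to 0.49, Oasl2 -0.58 to 1.04, Ifit3 -0.91 to 0.41, Mx1 -0.41 to 0.99, Rsad2 -0.85 to 0.74, Isg20 -0.30 to 0.44, Bst2 -0.62 to 0.056, Cmpk2 -0.80 to 0.32, Trim30a -0.32 to 0.20, Parp9 -0.25 to 0.22, Dtx3l -0.42 to 0.17, Parp14 -0.44 to 0.37, Ifi44 -0.37 to 0.87, Rtp4 -0.52 to 0.31, Xaf1 -1.03 to 0.49, Socs1 -0.0031 to 0.34, Pias1 -0.13 to 0.0035, Ogt -0.17 to 0.077. The cause was not tested.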

Other observations

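For numbers 2 and 3 the likeness of libraries that share a replicate number was not limited to interferon genes. With the response genes and the other interferon lists left out, the deviations from the group means correlated across 15946 genes at 0.108 for number 1, 0.332 for number 2 and 0.516 for number 3. Between different numbers the values ran from -0.408 to 0.269, the highest for Ogt-KD replicate 1 and control replicate 2. That value was above the one for number 1. Genes are not independent replicates, and the cause was not tested.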
